A study of Mus musculus with 24 samples.

Results

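Hearts of CAST/EiJ mice held 45 genes at a small part of their level in hearts of C57BL/6J and NZO/HlLtJ mice, where each was at 1 CPM or more. CPM is the deposited count of a gene divided by the total of its library, times 1000000. For most single genes outside the 45, strain means use rounded counts and totals scaled by edgeR's TMM factors, which were 0.954 to 1.06. The 45 were chosen by their measured levels from 20961 listed genes. A gene was kept when its mean over 8 libraries reached 1 CPM in both C57BL/6J and NZO/HlLtJ, and its mean over the 8 CAST/EiJ libraries was at most 12.5% of the lower of those 2 means. These limits were met by 99 genes. Of these, 54 were set aside because the rule drops predicted genes, ribosomal, mitochondrial, histocompatibility, potassium channel and collagen symbols, interferon-response families, and Iigp1, Tgtp2, Irf7 and Pon2. The difference between CAST/EiJ and the other strains therefore chose the members and is described here without a test.

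Bulk RNA sequencing was done on hearts of wild-type mice of 3 inbred strains. C57BL/6J is the strain of the mouse reference genome, NZO/HlLtJ is an obesity-prone and diabetes-prone strain, and CAST/EiJ derives from wild Mus musculus castaneus. Females and males of each strain ate a diet labelled as 10% or 44% fat, both with fiber, from week 6 of age, and hearts were taken at week 15. The 12 groups of strain, sex and diet hold 2 libraries each, 24 in all. The treatment text calls the diets control and high fat, high sugar.

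Inbred mouse strains differ by sequence variants and by copy number, and a gene whose promoter, splice sites or exons carry such a variant can lose its transcript in one strain. CAST/EiJ belongs to another subspecies than the strains from which C57BL/6J mostly descends and carries many more such differences. Whether any of the 45 carries one was not tested. Some members are known from muscle cells and fibroblasts, and others from macrophages, neurons or sensory cells.

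The 45 members, by known role, were 4 metabolic enzymes (among them Ogdhl, Dpyd and Fam213b), 11 channels and receptors (among them Grin2c, Gabra3, Chrna2, Cnga3, Cngb3, Cacng6, Best3, Ano5, Aqp4, Sstr3) and 8 secreted or cell-surface proteins (Egf, Nrg2, Lrrc15, Cilp2, Cpn2, Plac9b, Retnla, Wfdc17). A further 5 act in the cytoskeleton, trafficking or adhesion (Myl1, Scin, Rab3b, Sec14l5, Cntn5), 3 on chromosomes or DNA (Sgol2a, Rad9b, Pgbd1) and 2 in cilia (Dnaaf3, Ubxn10). Ms4a7 and Psme2b are immune genes, Rorb encodes a nuclear receptor, and Mlana is a gene of pigment cells. The other 8 are noncoding or were not given a role (Tmem254b, Tmem254c, Tmem45b, Erdr1, AI317395, Gdap10, Plet1os, RP24-470M22.10). These roles were assigned from general knowledge of the genes after the list was known. GENCODE M21 classes 42 of the 45 as protein coding.

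The promoters of 5 members are shown because they stand for the metabolic, muscle and macrophage genes of the list and for both extents of loss, from a reduced level (Myl1) to no count at all (Fam213b, Wfdc17). Each sequence is the RefSeq promoter of GRCm38.p6, 250 bases before to 50 bases after the start, read 5′ to 3′ on the gene's strand. Capitals mark every match, on either strand, to the TATA box letters TATAAA, to the CCAAT box and to the letters GGGCGG of Sp1-type sites. None of the matches in these promoters overlap. Ogdhl is from chr14:32321769-32322068 (plus strand), Fam213b from chr4:154898994-154899293 (minus strand), Myl1 from chr1:66945007-66945306 (minus strand), Retnla from chr16:48842359-48842658 (plus strand) and Wfdc17 from chr11:83703806-83704105 (plus strand).
Ogdhl: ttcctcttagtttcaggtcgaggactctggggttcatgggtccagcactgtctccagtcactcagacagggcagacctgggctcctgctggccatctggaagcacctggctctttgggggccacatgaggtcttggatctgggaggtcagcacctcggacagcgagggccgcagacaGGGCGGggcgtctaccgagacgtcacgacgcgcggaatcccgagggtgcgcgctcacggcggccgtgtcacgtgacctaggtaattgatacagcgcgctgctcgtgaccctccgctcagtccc
Fam213b: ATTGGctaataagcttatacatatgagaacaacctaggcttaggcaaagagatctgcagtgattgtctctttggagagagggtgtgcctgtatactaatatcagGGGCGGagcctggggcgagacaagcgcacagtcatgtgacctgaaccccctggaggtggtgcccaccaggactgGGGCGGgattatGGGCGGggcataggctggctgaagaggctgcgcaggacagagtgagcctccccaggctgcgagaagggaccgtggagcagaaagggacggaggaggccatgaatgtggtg
Myl1: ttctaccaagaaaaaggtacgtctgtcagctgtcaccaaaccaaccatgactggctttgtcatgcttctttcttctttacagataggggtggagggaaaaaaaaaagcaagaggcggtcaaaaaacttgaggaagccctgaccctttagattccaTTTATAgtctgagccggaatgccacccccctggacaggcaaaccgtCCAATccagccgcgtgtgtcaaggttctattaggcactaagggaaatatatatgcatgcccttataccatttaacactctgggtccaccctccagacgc
Retnla: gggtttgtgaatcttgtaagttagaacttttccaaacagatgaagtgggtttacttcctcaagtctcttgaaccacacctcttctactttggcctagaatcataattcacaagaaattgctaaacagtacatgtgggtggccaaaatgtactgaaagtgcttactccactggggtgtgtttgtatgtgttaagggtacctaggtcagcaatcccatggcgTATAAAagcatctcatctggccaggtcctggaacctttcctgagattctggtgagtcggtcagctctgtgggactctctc
Wfdc17: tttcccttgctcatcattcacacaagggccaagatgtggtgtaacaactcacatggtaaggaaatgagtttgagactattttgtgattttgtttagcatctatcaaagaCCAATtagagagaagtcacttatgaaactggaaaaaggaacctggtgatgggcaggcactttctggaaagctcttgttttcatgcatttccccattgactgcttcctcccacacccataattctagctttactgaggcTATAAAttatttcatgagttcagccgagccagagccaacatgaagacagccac
Retnla held TATAAA 30 bases before its start, on the gene's own strand, and Wfdc17 held it 3 bases before its start. Myl1 held it on the opposite strand, 95 bases before the start, along with CCAAT 49 bases before the start. Ogdhl held 1 copy of GGGCGG, and Fam213b held 3 copies and a CCAAT on the opposite strand.

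The first listed start of each gene was used, and some members have other listed starts. Over the 34 members with an entry in the promoter table, TATAAA occurred in 9, or 26.5%. It occurred in 6.9% of the 9525 promoters of genes at 1 CPM or more in both C57BL/6J and NZO/HlLtJ, and in 14.2% of all 27025 promoters in the table. GGGCGG was in 47.1% of the members, in 65.6% of the transcribed genes and in 35.9% of all promoters. The CCAAT box was in 38.2%, 38.2% and 37.9% of these sets. The members' promoters held a median of 10 CpG dinucleotides, against 21 in the transcribed genes and 7 in all promoters. At most 5 CpG were present in 26.5%, 8.9% and 43.6% of them. In the letters searched, the members' promoters thus lay between those of transcribed genes and those of the whole table for CpG content, and above both for TATAAA. These are descriptions with no test, and a match is not a site of binding. The comparison sets were not matched to the members for level. The sequence is that of the reference strain, so it shows no CAST/EiJ allele.

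The libraries held 30205073 to 52254058 counts. The 8 CAST/EiJ libraries together held 319739946 counts, so that 3 counts over all of them, the floor used here, correspond to 0.00938 CPM. Summed over the 45 members, C57BL/6J libraries reached 402.6 to 493.4 CPM, with a median of 459.7, and NZO/HlLtJ libraries 532.5 to 631.0 CPM, with a median of 589.3. CAST/EiJ libraries reached 14.06 to 28.18 CPM, with a median of 17.25. The highest CAST/EiJ sum, in the library of a male on 10% fat, was far below the lowest sum of either other strain. Counts of the heart muscle list (Myh6, Tnnt2, Tnni3, Actc1, Ryr2, Myl2, Nppa, Pln) summed to 51790 to 58630 CPM in C57BL/6J, 49610 to 62290 CPM in NZO/HlLtJ and 53140 to 63250 CPM in CAST/EiJ, so all strains' libraries carried the labelled tissue.

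The members were not all silent in CAST/EiJ. The CAST/EiJ mean was under 1% of the lower other strain for 8 genes, 1% to 5% for 12, and 5% or more for 25, with a median of 5.38%. The submitters' processing notes name GRCm38, a C57BL/6J sequence, without its role. How well CAST/EiJ reads were assigned to genes was not tested. No CAST/EiJ library had a count after rounding for 6 genes, while 29 genes had a count in all 8 CAST/EiJ libraries. The 6 include Tmem254b and Psme2b, whose reads could be assigned to near-identical copies that did have CAST/EiJ counts, as given below. The lower of the means of the other strains was at least 10 CPM for 9 members, from 2 to 10 CPM for 19, and under 2 CPM for 17. In 44 of 45 members every CAST/EiJ library was below every library of the other strains, a pattern found in 8.65% of the 17203 genes tested, and one that the rule itself favours. Tmem254c was the exception. The same numeric and symbol rule gave 5 genes of 11377 when C57BL/6J was the low strain and 7 of 11357 when NZO/HlLtJ was, against 45 of 11548 for CAST/EiJ.

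**Figure D1:**
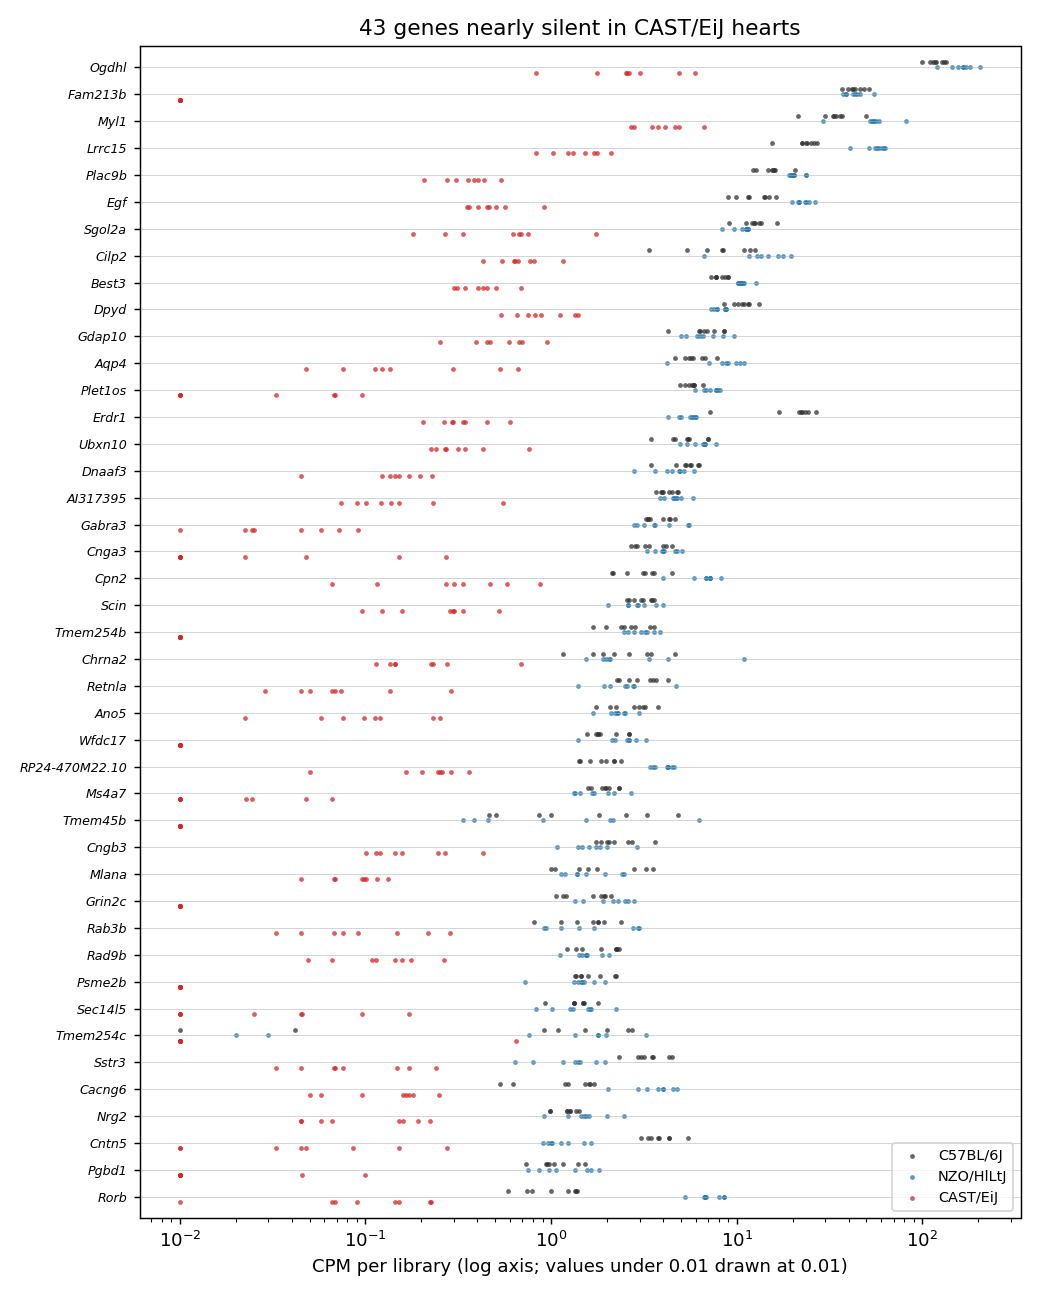
Level of 43 of the 45 members in each of the 24 libraries, in CPM on a log axis, coloured by strain. CAST/EiJ points lie to the left of the other strains in every row but that of Tmem254c, and values under the plotted minimum are drawn at it.

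Per kilobase of exon, Fam213b had the highest level of the members, at 42.7 CPM per kb in C57BL/6J and 42.2 CPM per kb in NZO/HlLtJ, followed by Ogdhl at 28.6 and 39.5 CPM per kb. Both encode metabolic enzymes. Ogdhl encodes an oxoglutarate dehydrogenase-like subunit, related to the first enzyme of the mitochondrial complex that converts 2-oxoglutarate to succinyl-CoA. The gene (ENSMUSG00000021913, chr14:32322019-32347820, plus strand, GRCm38) ranged from 99.0 to 135 CPM in C57BL/6J, with a median of 117, and from 120 to 206 CPM in NZO/HlLtJ, with a median of 166. In CAST/EiJ it ranged from 0.833 to 5.93 CPM, with a median of 2.59. Every CAST/EiJ library held counts, 966 in all, and none reached the range of the other strains. The 4 CAST/EiJ libraries of males were at 2.61 to 5.93 CPM and the 4 of females at 0.833 to 2.57 CPM. This split was noticed after the values were seen and was not tested. The C57BL/6J mean was 39.3-fold above the CAST/EiJ mean (95% counting interval 36.9 to 41.9). This interval covers counting error in CAST/EiJ only. It leaves out the spread of the CAST/EiJ libraries, which had a mean of 3.02 and an SD of 1.65 CPM. Ogdh, the close relative of Ogdhl and the main subunit of the same complex in heart, differed far less. It was at 2410 ± 106 CPM in C57BL/6J, 2289 ± 63.7 CPM in NZO/HlLtJ and 2179 ± 104 CPM in CAST/EiJ (SD, n = 8 each). Ogdh was chosen for this comparison after its values were seen. The Ogdh values are on the TMM scale, and those of Ogdhl are not.

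Fam213b encodes a peroxiredoxin-like enzyme that makes prostaglandin F-type products. Fam213b (ENSMUSG00000029059, chr4:154895504-154899135, minus strand) ranged from 36.9 to 51.7 CPM in C57BL/6J, with a median of 43.1, and from 37.4 to 55.2 CPM in NZO/HlLtJ, with a median of 42.8. It was at 0 in all 8 CAST/EiJ libraries. The lower mean was at least 4622-fold higher than the floor of 3 counts over the CAST/EiJ libraries, the largest such bound on the list. The C57BL/6J and NZO/HlLtJ ranges overlapped almost fully.

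Dpyd, whose enzyme starts the breakdown of pyrimidines, had medians of 10.8, 8.24 and 0.852 CPM in C57BL/6J, NZO/HlLtJ and CAST/EiJ. Its CAST/EiJ libraries, at 0.541 to 1.39 CPM, were all under the 7.28 CPM of the lowest other library.

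**Figure D2:**
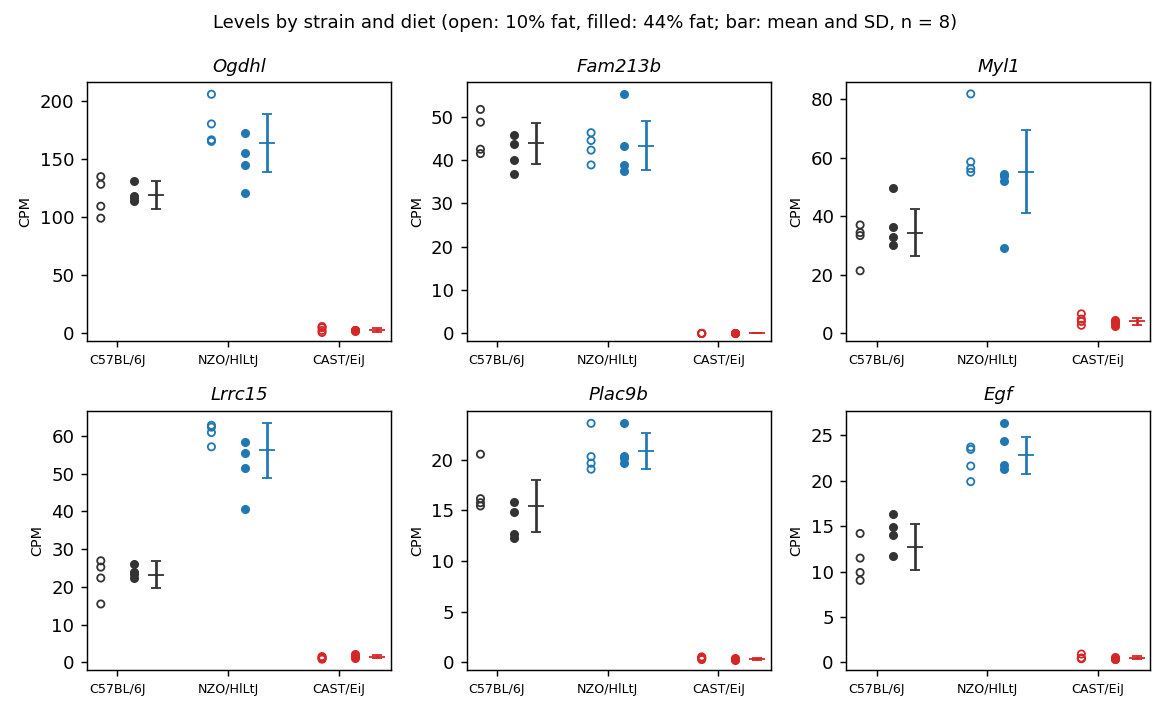
CPM in each library, on a linear axis from 0, for 6 of the members with the highest lower-of-two means, by strain. Open points are 10% fat, filled points 44% fat, and bars the mean and SD of 8 libraries. In each gene all CAST/EiJ points lie below all points of the other strains, and Fam213b is at 0 in CAST/EiJ.

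Among the channels and receptors, Best3 encodes a bestrophin, a family of chloride channels. It ranged from 7.25 to 9.01 CPM in C57BL/6J, with a median of 8.05, from 10.2 to 12.8 CPM in NZO/HlLtJ, with a median of 10.5, and from 0.302 to 0.689 CPM in CAST/EiJ, with a median of 0.417. All 3 strains' ranges were separate for Best3. Aqp4, a water channel, had medians of 5.74, 8.83 and 0.129 CPM in C57BL/6J, NZO/HlLtJ and CAST/EiJ. Its CAST/EiJ libraries spread from 0.0481 to 0.661 CPM, with the 4 libraries on 10% fat at 0.135 to 0.661 CPM and the 4 on 44% fat at 0.0481 to 0.123 CPM.

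Grin2c, an NMDA-type glutamate receptor subunit, was at 0 in all 8 CAST/EiJ libraries and at means of 1.62 ± 0.418 CPM in C57BL/6J and 2.14 ± 0.525 CPM in NZO/HlLtJ (SD, n = 8), at least 173-fold higher than the floor. Gabra3, a GABA-A receptor subunit, was at means of 3.83 ± 0.565, 3.93 ± 1.09 and 0.0423 ± 0.0300 CPM in C57BL/6J, NZO/HlLtJ and CAST/EiJ (SD, n = 8). Both thus sat at or near the limit of counting in CAST/EiJ. Cnga3 and Cngb3 encode the partner subunits of the cyclic nucleotide-gated channel of cone photoreceptors, and both were members although they lie on chromosomes 1 and 4. Cnga3 stood at 1.78% of the lower strain mean and Cngb3 at 11.3%. The other receptor and channel members, Chrna2 (a nicotinic acetylcholine receptor subunit), Ano5 (an anoctamin), Sstr3 (a somatostatin receptor) and Cacng6 (a calcium channel gamma subunit), stood at 9.37%, 5.23%, 8.13% and 11.2%.

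The secreted and cell-surface members include matrix proteins and growth factors. Lrrc15 encodes a leucine-rich repeat membrane protein of activated fibroblasts. It ranged from 15.5 to 26.9 CPM in C57BL/6J, with a median of 23.7, from 40.8 to 62.9 CPM in NZO/HlLtJ, with a median of 57.8, and from 0.833 to 2.09 CPM in CAST/EiJ, with a median of 1.42. The 3 strains formed separate ranges. Egf, the epidermal growth factor precursor, ranged from 9.03 to 16.4 CPM in C57BL/6J, with a median of 12.8, from 19.9 to 26.4 CPM in NZO/HlLtJ, with a median of 22.6, and from 0.352 to 0.913 CPM in CAST/EiJ, with a median of 0.456. Its strains were also separate, in the same order. Nrg2, a neuregulin that like Egf is a ligand of the ErbB receptor family, was at 1.21 ± 0.159, 1.59 ± 0.473 and 0.117 ± 0.0719 CPM (SD, n = 8). Egfr, the receptor of Egf, was at 11.1 ± 0.681, 13.7 ± 3.05 and 9.76 ± 1.87 CPM in C57BL/6J, NZO/HlLtJ and CAST/EiJ. In CAST/EiJ it was lower than in NZO/HlLtJ (log2 difference -0.50, adjusted p = 9.62e-04 by edgeR). Against C57BL/6J the difference was not called (-0.20, adjusted p = 0.136 by edgeR).

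Plac9b, which encodes a small secreted protein, ranged from 12.3 to 20.6 CPM in C57BL/6J, with a median of 15.6, from 19.1 to 23.6 CPM in NZO/HlLtJ, with a median of 20.3, and from 0.207 to 0.538 CPM in CAST/EiJ, with a median of 0.372. The CAST/EiJ range was far below both. Cilp2, a cartilage matrix protein, was at 8.46 ± 3.19, 14.2 ± 4.01 and 0.705 ± 0.220 CPM in C57BL/6J, NZO/HlLtJ and CAST/EiJ, and Cpn2, the regulatory subunit of carboxypeptidase N, was at 3.09 ± 0.791, 6.66 ± 1.26 and 0.375 ± 0.260 CPM (SD, n = 8). Cpn2 and Lrrc15 are neighbours on chromosome 16, 1770 bases apart on the same strand. The summed fibroblast list (Col1a1, Col1a2, Col3a1, Dcn, Pdgfra, Lum) was at 993.5 to 1120 CPM in C57BL/6J, 1430 to 1913 CPM in NZO/HlLtJ and 882 to 1290 CPM in CAST/EiJ. Of its 6 genes, 2 were lower in CAST/EiJ than in both others, and the part of these cells in the Lrrc15 and Cilp2 values was not tested. In bulk tissue, fewer cells of a type and less RNA per cell cannot be told apart.

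Among genes of macrophages, Retnla, a secreted product of alternatively activated macrophages, was at 3.12 ± 0.717, 2.60 ± 0.984 and 0.0945 ± 0.0845 CPM in C57BL/6J, NZO/HlLtJ and CAST/EiJ (SD, n = 8). Wfdc17, a whey acidic protein-type factor of macrophages, was at 2.03 ± 0.415 and 2.46 ± 0.552 CPM in C57BL/6J and NZO/HlLtJ and at 0 in all 8 CAST/EiJ libraries, at least 216-fold higher than the floor. Ms4a7, a membrane protein of macrophages, was at 1.97 ± 0.276, 1.80 ± 0.479 and 0.0202 ± 0.0255 CPM. These 3 genes had few or no counts in any CAST/EiJ library. The macrophage list (Adgre1, Csf1r, C1qa, Cd68, Mrc1, Lyz2) summed to 194 to 250.2 CPM, 176.4 to 269.5 CPM and 177.8 to 240.9 CPM in the same strains. Its ranges overlapped, and 1 of its 6 genes, Adgre1, was called lower in CAST/EiJ than in both others.

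Myl1 encodes an essential myosin light chain of fast skeletal muscle. It ranged from 21.4 to 49.8 CPM in C57BL/6J, with a median of 33.9, from 29.3 to 81.8 CPM in NZO/HlLtJ, with a median of 54.8, and from 2.69 to 6.69 CPM in CAST/EiJ, with a median of 3.92. The C57BL/6J mean was 8.33-fold above the CAST/EiJ mean (95% counting interval 7.92 to 8.83), so Myl1 lay just inside the rule. That interval leaves out the spread between libraries. The skeletal muscle markers found (Myh4, Acta1, Tnnt3, Mylpf) summed to 90.28 to 229 CPM in C57BL/6J, 1088 to 3383 CPM in NZO/HlLtJ and 149.1 to 379.4 CPM in CAST/EiJ. Most of these sums is Acta1, which heart muscle also transcribes, and Mylpf, the fast muscle regulatory light chain, averaged 0.375, 0.229 and 0.322 CPM. Myh4, a fast myosin heavy chain, and Mylpf were thus near 0 in every strain, and Tnnt3 was too low to be tested. The atrial markers Myl7, Sln and Myl4 summed to overlapping ranges of 235.3 to 759.1, 376.1 to 1152 and 282.3 to 909.4 CPM. The other muscle, trafficking and adhesion members, Scin, Rab3b, Sec14l5 and Cntn5, stood at 3.44% to 8.87% of the lower strain.

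Sgol2a, a shugoshin that guards sister chromatid cohesion, ranged from 9.09 to 16.4 CPM in C57BL/6J, with a median of 12.5, from 8.33 to 11.6 CPM in NZO/HlLtJ, with a median of 11.2, and from 0.180 to 1.75 CPM in CAST/EiJ, with a median of 0.651. No CAST/EiJ library reached the other strains. Rad9b, a relative of the Rad9 checkpoint protein, averaged 1.87, 1.57 and 0.135 CPM, and Pgbd1, derived from a transposase, 1.09, 1.25 and 0.0181 CPM. Dnaaf3, needed to assemble the dynein arms of cilia, averaged 5.31 CPM in C57BL/6J, 4.51 CPM in NZO/HlLtJ and 0.150 CPM in CAST/EiJ. Ubxn10, another ciliary protein, averaged 5.39, 6.34 and 0.357 CPM. Each of these 5 genes was lower in every CAST/EiJ library than in any other.

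The noncoding members were Gdap10, a long intergenic RNA, and Plet1os, an antisense RNA of Plet1. Gdap10 was at 6.90 ± 1.40, 6.87 ± 1.58 and 0.560 ± 0.216 CPM in C57BL/6J, NZO/HlLtJ and CAST/EiJ (SD, n = 8). It lies within Nampt on the same strand, and Nampt was at 197 ± 14.7, 197 ± 10.3 and 124 ± 35.1 CPM (SD, n = 8). Reads of Gdap10 and Nampt may be shared, so the Gdap10 level is uncertain. Plet1os averaged 5.71, 7.26 and 0.0332 CPM, and without strand information its reads and those of Plet1 cannot be told apart. Of the other members without a role above, AI317395 was at 4.24 ± 0.408, 4.67 ± 0.607 and 0.182 ± 0.157 CPM. Tmem45b, a membrane protein gene, varied widely in the strains that had it, from 0.464 to 4.84 CPM in C57BL/6J and from 0.336 to 6.24 CPM in NZO/HlLtJ, and was at 0 in all 8 CAST/EiJ libraries. Mlana, a melanosome protein gene, was at 2.05 ± 0.998, 1.68 ± 0.533 and 0.0904 ± 0.0283 CPM. All CAST/EiJ libraries lay below the others for these 3 genes.

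In GENCODE M21 another gene overlaps 10 members on the same strand and 20 on the opposite strand, and the levels of these members are uncertain to that extent. Dnaaf3 shares its strand with Tnni3, the cardiac troponin I gene, which was at 2313, 2199 and 2414 CPM in C57BL/6J, NZO/HlLtJ and CAST/EiJ. Some members have near-identical copies, where the authors' counting could move reads between genes. Of the members, 9 shared a stretch of 100 bases with another gene's transcript, and 4 shared most of their stretches: Tmem254b and Tmem254c (100%), Plac9b (96.5%) and Psme2b (52.0%). Tmem254b, Plac9b and Tmem254c lie together on chromosome 14, with gaps of 20889, 100050 and 136014 bases between them. Summed with Tmem254a, the copies of Tmem254 were at 6.61 ± 0.689, 7.58 ± 1.38 and 2.31 ± 0.688 CPM in C57BL/6J, NZO/HlLtJ and CAST/EiJ. Tmem254a itself was at 2.62, 3.11 and 2.23 CPM, so most CAST/EiJ counts of the family were given to Tmem254a. The sum of Plac9a and Plac9b was 16.3 ± 2.25, 21.7 ± 1.83 and 0.872 ± 0.176 CPM, so the sum of this pair was also low. Gm9780, a predicted gene that shares stretches with Plac9b and is not in that sum, was at 5.30, 7.87 and 0.823 CPM. Psme2b was at 1.69 and 1.44 CPM in C57BL/6J and NZO/HlLtJ and rounded to 0 in CAST/EiJ, while Psme2, the other copy of this proteasome activator gene, was at 24.4, 24.4 and 21.6 CPM. Tmem254c was the 1 member whose strains overlapped. It ran from 0.000134 to 2.72 CPM in C57BL/6J and from 0.0201 to 3.24 CPM in NZO/HlLtJ, and 1 CAST/EiJ library, a male on 10% fat, reached 0.648 CPM. Erdr1 shares 30.7% of its stretches with another gene. GENCODE places Erdr1 on chromosome Y. In C57BL/6J, Erdr1 was at 23.5 ± 2.20 CPM in females and 17.7 ± 7.71 CPM in males (SD, n = 4).

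The genes nearest to the threshold of 12.5% were, on the inside, Myl1, RP24-470M22.10 at 12.1% and Cpn2 at 12.14%. Just outside were Tmem56 at 12.54% and Grhl2 at 12.56%. Only a small step separated the last member from the first nonmember.

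The C57BL/6J and NZO/HlLtJ levels of the members served the rule as a floor, and the lower of them as the reference of the CAST/EiJ limit. Neither use sets which of the 2 strains is higher, and that direction was tested, with edgeR's quasi-likelihood test and Benjamini-Hochberg adjustment over 17203 genes. Of the 45 members, 19 passed: 14 were higher in NZO/HlLtJ (background 17.9% of genes tested) and 5 were lower (background 17.6%). In either direction the background was 35.5%. These backgrounds cover all 17203 genes tested, of which 13046 had a mean of at least 1 CPM. No background at the members' floor was computed for this contrast, so the shares are not matched for level. The median log2 difference of the members was 0.13, against 0.00 for all genes. With scaling by library totals alone, 15 were higher and 4 lower, while over all genes 4029 were higher and 2167 lower, against 3085 and 3023 with TMM scaling. The 19 members called included 5 of the 8 secreted and cell-surface proteins, all higher, and 6 of the 11 channels and receptors. Roles were assigned after the list was known and no share for such roles over all genes was computed. These counts therefore say nothing about the roles, and some of the calls were lost in alternative fits.

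Rorb, a nuclear receptor of the ROR family, differed most. It was at 0.587 to 1.38 CPM in C57BL/6J, with a median of 1.12, and at 5.25 to 8.52 CPM in NZO/HlLtJ, with a median of 6.80. The 2 strains did not overlap, and the log2 difference was 2.74 (SE 0.20, adjusted p = 5.34e-09). Cacng6 was at 0.532 to 1.71 CPM in C57BL/6J and 2.04 to 4.77 CPM in NZO/HlLtJ (log2 difference 1.56, SE 0.14, adjusted p = 6.3e-08). Lrrc15 was higher by 1.21 (SE 0.11, adjusted p = 2.46e-07) and Egf by 0.81 (SE 0.08, adjusted p = 3.29e-07). Plac9b and Best3 were higher by 0.39 and 0.35 on the log2 scale (adjusted p = 5.59e-04 and 6.93e-04).

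Erdr1 fell by 1.96 (SE 0.18, adjusted p = 5.77e-07) in NZO/HlLtJ against C57BL/6J. It was at 7.14 to 26.6 CPM in C57BL/6J and at 4.26 to 6.05 CPM in NZO/HlLtJ. Cntn5, a neural adhesion protein of the contactin family, was at 3.06 to 5.46 CPM and at 0.906 to 1.65 CPM, a log2 difference of -1.81 (SE 0.21, adjusted p = 1.71e-06). Sstr3 was at 2.32 to 4.47 CPM and at 0.643 to 1.95 CPM (-1.45, SE 0.22, adjusted p = 4.03e-05). Dpyd was lower by a log2 difference of -0.45 (SE 0.09, adjusted p = 8.01e-04). Among the other members called, RP24-470M22.10, Cpn2, Cilp2, Myl1, Aqp4 and Ogdhl were higher and Cngb3 was lower (-0.49, adjusted p = 0.0324). The calls of Cngb3, Cilp2 and Aqp4 were lost in 11, 7 and 2 of 30 alternative fits, at adjusted p up to 0.0846, 0.0712 and 0.0968. Acta1, a marker in the skeletal muscle list, was at 1785 CPM in NZO/HlLtJ against 157 CPM in C57BL/6J, and the fibroblast sum was also higher there. Their part in the Myl1, Lrrc15 and Cilp2 differences was not tested.

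**Figure D3:**
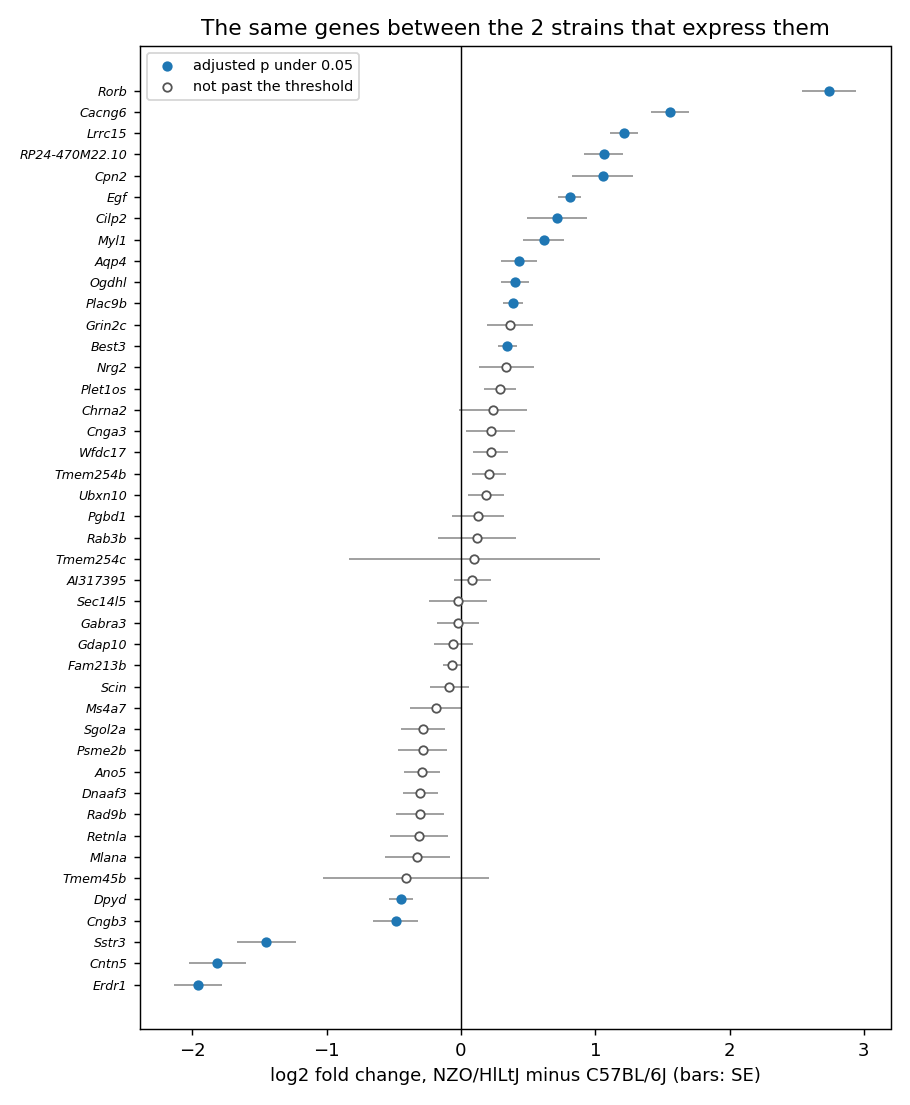
Log2 difference of NZO/HlLtJ minus C57BL/6J with its standard error for 43 of the 45 members, by edgeR. Filled points passed an adjusted p of 0.05, 12 to the right of zero and 5 to the left, with Rorb at 2.74 and Erdr1 at -1.96 at the ends.

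Diet was the study's treatment, and no member passed its test by edgeR. Of 45 members, 0 were called for 44% against 10% fat in C57BL/6J (background 0.0407%), 0 in NZO/HlLtJ (background 0%) and 0 in CAST/EiJ (background 0%), and 0 for the difference of the diet effects of NZO/HlLtJ and C57BL/6J (background 0.00581%). At an unadjusted p under 0.05 the edgeR counts were 4, 3, 7 and 7, against 966, 1233, 1137 and 818 of all 17203 genes. DESeq2 called 0, 0, 1 and 0 members, and 38, 13, 29 and 4 of all genes. The smallest adjusted p among members was 0.361 in C57BL/6J, for Cacng6, which was at 0.988 ± 0.507 CPM on 10% fat and 1.52 ± 0.206 CPM on 44% fat (SD, n = 4). In CAST/EiJ it was 0.165, for Aqp4, at 0.405 ± 0.235 CPM on 10% fat and 0.0898 ± 0.0345 CPM on 44% fat (SD, n = 4; log2 difference -2.13, SE 0.46). The 2 diets did not overlap for Aqp4 in CAST/EiJ, and DESeq2 called it (-2.18, adjusted p = 0.00581). Without the first CAST/EiJ library of females on 10% fat, edgeR gave a log2 difference of -2.53. These values rest on few counts, 73 over the CAST/EiJ libraries. Each library held 6 to 23 counts of Aqp4 on 10% fat and 2 to 5 on 44% fat.

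Sex was compared in the strains that express the members. In C57BL/6J and NZO/HlLtJ together, 0 of 45 were called for males against females (background 0.267%), with 2 at an unadjusted edgeR p under 0.05, Fam213b and Cngb3, against 1459 of all 17203 genes. DESeq2 called 0 members and 109 of all genes. Fam213b was at 45.3 ± 6.49 CPM in C57BL/6J males and 42.5 ± 2.52 CPM in C57BL/6J females, and at 47.3 ± 5.42 CPM in NZO/HlLtJ males and 39.4 ± 2.07 CPM in NZO/HlLtJ females (SD, n = 4). Without the second C57BL/6J library of males on 44% fat, Erdr1 had a log2 difference of -0.51, against -0.25 with all libraries.

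The nearest tested genes on either side of the members, leaving out genes that passed the numeric rule themselves, numbered 84. CAST/EiJ was compared with each other strain, in contrasts that share the CAST/EiJ libraries. Of the 84, 50 were called in both in the same direction (background 43.2%): 35 (41.7%) were lower in CAST/EiJ than in both other strains (background 21.9%) and 15 (17.9%) were higher (background 21.2%). With scaling by library totals alone, 28 were lower and 16 higher, and over all genes 3204 were lower and 4338 higher, a shift of the median of 0.08 on the log2 scale. Among the 60 neighbours within 100 kb, 26 were lower and 11 higher. Of the 14 neighbours that overlap a member, where reads can be assigned to either gene, 8 were lower and 1 higher, and of the 70 that overlap none, 27 (38.6%) were lower and 14 (20%) higher. The median log2 difference of the 84 from C57BL/6J was -0.19, and from NZO/HlLtJ -0.24, against 0.00 and 0.00 over all genes tested.

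Ephx2, which encodes soluble epoxide hydrolase and lies 10.5 kb from Chrna2, was at 241 ± 35.3, 219 ± 36.9 and 66.8 ± 5.20 CPM in C57BL/6J, NZO/HlLtJ and CAST/EiJ (SD, n = 8; log2 differences -1.84 and -1.71, larger adjusted p = 3.47e-14 by edgeR). Aox1, an aldehyde oxidase gene 4.03 kb from Sgol2a, was at 40.1 ± 4.81, 37.7 ± 4.03 and 11.2 ± 3.80 CPM (larger adjusted p = 5.07e-09 by edgeR). Both neighbours kept a substantial CAST/EiJ level. Ms4a14, beside Ms4a7, was at 0.733, 0.730 and 0.00943 CPM, which is near the floor in CAST/EiJ. Ccl6, a chemokine gene 110.9 kb from Wfdc17, was at 10.3 ± 1.60, 11.5 ± 3.24 and 3.10 ± 0.452 CPM, and Heatr6, on the other side of Wfdc17, at 12.6 ± 0.731, 13.5 ± 0.565 and 9.95 ± 0.502 CPM. Nrd1, beside Rab3b, was lower by a smaller step, at 209, 200 and 169 CPM.

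Other neighbours were higher in CAST/EiJ. Lsmem1, 42.2 kb from Scin, was at 14.1 ± 1.77, 13.3 ± 1.39 and 27.7 ± 2.37 CPM (SD, n = 8; log2 differences 0.98 and 1.05, larger adjusted p = 2.08e-10 by edgeR). Vps29, a retromer gene 0.136 kb from Rad9b, was at 27.6, 28.7 and 34.7 CPM. The other flanks of Scin and Rad9b were lower in CAST/EiJ: Arl4a, 21.7 kb from Scin, was at 17.9, 19.1 and 12.4 CPM (larger adjusted p = 2.39e-04 by edgeR), and Pptc7, which overlaps Rad9b, was also called lower (larger adjusted p = 0.0051 by edgeR). Syt5 near Dnaaf3, Barx2 near Tmem45b and Ms4a4a near Ms4a7 were also higher, from levels of 0.0438 to 2.33 CPM in the other strains. Parg, 24.5 kb from Ogdhl, was at 21.2, 20.8 and 23.6 CPM (larger adjusted p = 0.00717 by edgeR), and Slc18a3, on its other side, at 0.152, 0.142 and 0.119 CPM (0.770). The flanks of Ogdhl were picked out after their values were seen.

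**Figure D4:**
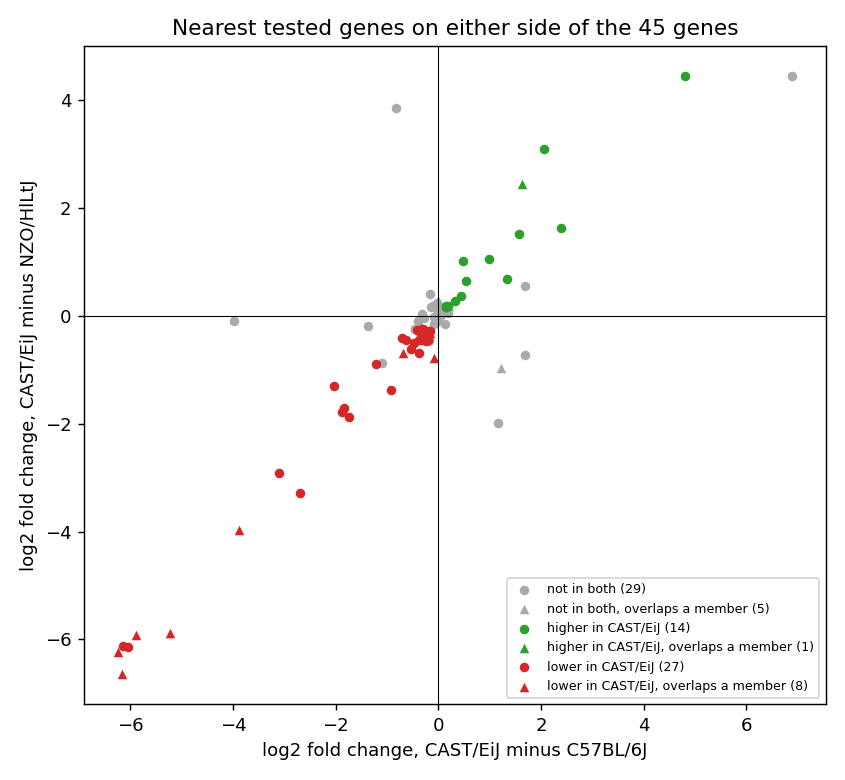
Nearest tested genes of the members, with the log2 difference of CAST/EiJ minus C57BL/6J on the horizontal axis and of CAST/EiJ minus NZO/HlLtJ on the vertical axis, by edgeR; colours give the call and triangles mark genes that overlap a member. Both axes share the CAST/EiJ libraries; 35 of 84 were called lower and 15 higher in both contrasts.

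Genes that share a symbol stem with a member were counted in the same way. Of 108 such genes, for 25 members, 19 (17.6%) were lower and 22 (20.4%) higher in CAST/EiJ than in both other strains, against the same backgrounds of 21.9% and 21.2%. A shared stem is a likeness of names, and not always of sequence. Aqp7, a glycerol and water channel, was at 22.5 ± 2.62, 21.5 ± 2.72 and 7.89 ± 1.51 CPM in C57BL/6J, NZO/HlLtJ and CAST/EiJ (SD, n = 8; larger adjusted p = 1.88e-12 by edgeR), and was lower in CAST/EiJ. The aquaporins Aqp1, at 218, 250 and 288 CPM, and Aqp8, at 1.82, 2.49 and 6.10 CPM, were called higher (larger adjusted p = 0.024 and 2.97e-05 by edgeR). Chrna10, a nicotinic receptor subunit like Chrna2, was at 2.84 ± 0.604, 2.57 ± 0.423 and 0.586 ± 0.332 CPM. Cntn2, a contactin like Cntn5, was at 10.9 ± 3.88, 18.8 ± 6.70 and 3.24 ± 0.929 CPM. Psme1, the partner of Psme2 in the proteasome activator, was higher in CAST/EiJ, at 63.3, 59.0 and 83.6 CPM, and Dnaaf5, which like Dnaaf3 serves dynein arm assembly, at 11.8, 12.8 and 19.5 CPM. Sec22a, Sec16b and Myl12b were also lower, and Sec22b, Sec61g and Rad52 higher.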

How the data were processed

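The authors deposited 1 table of expected counts per gene; 19.3% of its values were not whole numbers. The submitters' processing notes name GRCm38 and DESeq2 without role or version; aligner, counting program, strand setting and gene models: not given in the sources used here. GRCm38 is a C57BL/6J sequence, and how well CAST/EiJ reads matched it was not tested. Library totals were 30205073 to 52254058, and all 24 libraries were kept.

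Members and gene lists were chosen with earlier results of these data known. Strain means of members and their copies were taken over CPM of the unrounded values. Those of most other single genes, such as Ogdh, Egfr, Nampt, neighbours and relatives, used rounded counts over TMM-scaled totals. Sums of marker lists used rounded counts over unscaled totals. Members and other genes set side by side are therefore not on exactly the same scale. For tests, values were rounded and fitted in edgeR 4.0.16 (R 4.3.3) by a robust quasi-likelihood model with 1 mean for each of 12 groups, TMM factors of 0.954 to 1.06 and filterByExpr (minimum count 10, minimum total 15). This kept 17203 genes and removed 3758, with Benjamini-Hochberg adjustment and a threshold of 0.05. Replicate numbers follow accession order and only name libraries. Nothing in the labels assigns the 2 libraries of a group to separate mice; the p-values then measure only how far these samples spread, which may be technical. Counting intervals are exact Poisson at 95% on the summed CAST/EiJ counts, with the other mean held fixed, and cover counting error only. The CAST/EiJ contrasts were used only for genes outside the rule. The fit was tested on simulated data.

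Genes given in full were the 12 members with the highest lower-of-two mean, the 6 with the lowest CAST/EiJ ratio, the 3 on each side of the threshold, members within 1 Mb of another, and up to 6 called members, neighbours or relatives per direction by smallest adjusted p; the other genes are named as examples by role. Some members and other genes that this rule selects are not reported here by name. Positions and shared stretches use GENCODE M21 and promoters use RefSeq GRCm38.p6. Alternatives were DESeq2 1.42.0, other scalings and filters, other thresholds of the rule, the identifier range of the libraries as a covariate and leaving out each library.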

Additional observations from a re-analysis of the deposited data

Results flagged for a closer look

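Levels of single libraries stood apart from the other 7 of their strain in 9 of the 100 combinations of member and strain with enough counts to check. Chance alone exceeds the limit used (Dixon's 95% value) in about 1 of 20 groups, the combinations share libraries, and no excess over chance was tested. The libraries of male NZO/HlLtJ mice on 44% fat gave 4 of the 9. In replicate 1, Best3 was at 12.8 CPM (nearest other library 11.0), Tmem45b at 6.24 CPM (nearest 2.17) and Retnla at 4.73 CPM (nearest 2.8). In replicate 2, Chrna2 was at 10.9 CPM (nearest 4.28). In CAST/EiJ, Sgol2a was high in female 44% fat replicate 1 at 1.75 CPM (nearest 0.747), Egf in male 10% fat replicate 1 at 0.913 CPM (nearest 0.567) and Ubxn10 in male 10% fat replicate 2 at 0.759 CPM (nearest 0.431). In C57BL/6J, Lrrc15 was low in male 10% fat replicate 2 at 15.5 CPM (nearest 22.4), and Plac9b was high in male 10% fat replicate 1 at 20.6 CPM (nearest 16.2). No cause of these was tested.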

How the results depend on the processing

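The rule gave 45 genes. It gave 102 at a limit of 25%, 26 at 6.25% and 28 with a floor of 2 CPM, in each case by the construction of the limit, and 44 to 53 when single libraries were left out, with 53 without CAST/EiJ male 10% fat replicate 1. With all libraries kept, DESeq2 called 1 member for diet in CAST/EiJ (Aqp4), against 0 by edgeR. The cause was not tested. Leaving out single libraries gave 0 to 1 calls for diet in NZO/HlLtJ, for diet in CAST/EiJ and for sex (the NZO/HlLtJ call without its male 44% fat replicate 1), 16 to 20 for NZO/HlLtJ minus C57BL/6J, 45 to 51 for neighbours and 35 to 42 for relatives. Of 57 results for named genes, 56 kept their call in every alternative run, 1 (Cngb3) lost it in some, and 0 reversed. The calls of Cilp2 and Aqp4, which are not among the 57, were lost in 7 and 2 of 30 alternatives. The 57 were picked by smallest adjusted p in these same data, which favours keeping their calls. Each neighbour and relative among them enters once per CAST/EiJ contrast. With the range of library identifiers as a covariate, 16 members were called between NZO/HlLtJ and C57BL/6J (12 higher, 4 lower), and 33 neighbours were lower and 15 higher in CAST/EiJ. No range held all groups, and NZO/HlLtJ had no library in the first range. Its females on 10% fat and males on 44% fat were in the second range, and its other groups in the third. Within each sex, diet and range therefore cannot be told apart in NZO/HlLtJ, while over both sexes each diet was in both ranges. Within-range values of the NZO/HlLtJ contrasts were not computed. No paired analysis was possible because the labels carry no replicate numbers. Depth limits members under 2 CPM most: a CAST/EiJ level below 0.00938 CPM is not detectable here.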
